A study of Mus musculus with 6 samples.

Results

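DNA replication licensing and nucleotide synthesis were followed through 45 genes, given as a list and found by symbol among the 56196 genes counted in 6 mouse osteosarcomas. All 45 had enough reads to be tested. They fall into 10 roles: origin recognition (Orc1 to Orc6), helicase loading and its inhibitor (Cdc6, Cdt1, Gmnn), the MCM2-7 helicase, the relatives Mcm8 and Mcm10, helicase activation (Cdc45, Gins1 to Gins4, Cdc7, Dbf4), the sliding clamp and its loader (Pcna, Rfc1 to Rfc5), polymerases and primase (Pola1, Pola2, Prim1, Prim2, Pold1, Pole), single-strand binding (Rpa1, Rpa2), Okazaki fragment maturation (Fen1, Lig1) and nucleotide supply (Rrm1, Rrm2, Tyms, Tk1, Dut).

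The series asked how transcription differs between Rb1/p53-deficient osteosarcomas without SKP2 and those with it. The 3 control tumours, DKO, carried Osx1-Cre with Rb1lox/lox and p53lox/lox. The 3 knockout tumours, TKO, carried the same alleles plus SKP2-/-, so the floxed Rb1 and p53 alleles and the Cre were common to all 6 tumours. The Cre is driven by the promoter of Osx1, also called Sp7, which is active in osteoblast precursors, and is meant to delete both tumour suppressors in that lineage, whereas SKP2-/- is written without a lox allele. Tumour 1 of each group came from a male and tumours 2 and 3 from females. By sex, tumour 1 of a group came from another mouse than tumours 2 and 3. The sample codes of tumours 2 and 3 differ in each group, but what the codes mean is not given. Nothing states in words that tumours 2 and 3 came from separate mice. Ages and other treatments are not given. The p-values therefore reflect only the spread among these 6 samples, which may in part be technical.

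Before S phase, the origin recognition complex marks origins, and CDC6 and CDT1 load the ring-shaped MCM2-7 helicase on it, a step called licensing. Geminin (Gmnn) binds CDT1 and keeps origins from being loaded again. At S phase the kinase CDC7 with its activator DBF4 turns loaded helicases on, CDC45 and the GINS complex join them, and polymerases, the PCNA clamp and its loader RFC copy the DNA from nucleotides that ribonucleotide reductase and its partners supply. SKP2 is the substrate receptor of an SCF ubiquitin ligase that takes p27 and, after origins have fired, CDT1 protein to degradation. Many genes of licensing and nucleotide supply are targets of E2F factors, which RB1 restrains, so tumours without RB1 are a setting in which these genes are commonly active. Only RNA was measured here, so protein amounts and origin loading were not analysed.

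The libraries held 17063231 to 22488819 gene counts. Values are listed below in the order of tumours 1, 2 and 3 of a group. Skp2 checked the labels: it had 20, 64 and 46 counts in the DKO libraries and none in any TKO library (0 counts, which allows up to 3). Levels are read counts scaled to the TMM-adjusted library size (CPM, the usual library-size unit), and fold changes come from edgeR's quasi-likelihood test over 15361 genes adjusted by Benjamini-Hochberg, with the threshold set at 0.05. TKO1 stood apart, with a correlation of log2 CPM over genes of 0.83 to TKO2 and 0.805 to TKO3, against 0.915 between TKO2 and TKO3 and at least 0.933 between any DKO tumours. TKO1 was also the only male TKO tumour, so its sex and its other differences cannot be told apart, and results are given with and without it.

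The tumours also differed in the RNA of cell type markers, which is not a count of cells. Of the osteoblast lineage markers, Runx2 was present in all 6 tumours at 58.4 to 241 CPM, but Sp7, the gene whose promoter drives the Cre, had 0 counts in DKO2 and TKO1, and Ibsp had 0 in DKO2, DKO3 and TKO1. Col1a1, the main bone collagen, was at 209 CPM in TKO1 and at 9947 CPM or more in the other 5 tumours. Macrophage markers summed to 21.7 to 131 CPM in DKO and to 1059, 2931 and 2685 CPM in TKO. Of the 13 macrophage markers 11 rose, and the defining genes C1qa, C1qb and C1qc were at 0 in all DKO libraries. The pan-leukocyte, endothelial, skeletal muscle, erythroid and chondrocyte sums given below were likewise higher in every TKO tumour than in any DKO tumour. The osteoblast lineage and fibroblast sums overlapped. In the comparison of TKO with DKO, genotype and this marker content therefore cannot be told apart.

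Of the 45 replication genes, 0 changed at the threshold between TKO and DKO in edgeR's test, where 7.36% of all 15361 genes did (4.89% higher and 2.47% lower in TKO). At an unadjusted p under 0.05, 2 of the 45 were higher and 5 lower in TKO, where 14.4% and 10.6% of all genes were. The higher count was thus under its background share, and the lower count was close to its share. Limma-voom also called 0, and DESeq2 called 2 lower, Pold1 and Mcm8, where it called 7.22% of all genes lower. The fold changes ran from -1.45 on the log2 scale (Mcm8) to 1.28 (Tk1), with a median of 0.23 beside 0.09 over all genes tested, and 29 of the 45 were above 0. In 4 genes all TKO tumours were above all DKO tumours (Orc2, Gmnn, Rfc2, Rfc3), and in 5 all were below (Orc4, Mcm8, Mcm10, Cdc7, Pold1). Over all genes, 17.3% separated upward and 15.6% downward, 32.9% in all, so the 45 genes separated the groups no more often than genes at large.

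The TKO tumours differed more among themselves in these genes than the DKO tumours did. Relative to the mean, the SD over 3 tumours was larger in TKO than in DKO for 40 of 45 genes, with a median of 51.4% in TKO and 13.9% in DKO. Over the 15160 genes tested with a count in both groups, 66.2% were more variable in TKO, with medians of 41.4% and 27.2%. TKO1 had the highest level of all 6 tumours in 35 of the 45 genes, which it had in 23.9% of all genes, and its median over the 45 was 1.73 times the DKO mean (0.965 over all genes). TKO2 and TKO3 lay below every DKO tumour in 26 and 27 of the 45 genes, where 34.4% and 35.7% of all genes did. Their medians over the 45 were 0.797 and 0.798 times the DKO mean (0.983 and 0.975 over all genes). Summed over the 45 genes the level was 3416, 2990 and 2993 CPM in DKO and 5673.5, 2772.5 and 2384 CPM in TKO. The sums thus overlapped between the groups, with TKO1 above and the female TKO tumours below all 3 controls. In bulk RNA a smaller share of cycling cells and less RNA per cell cannot be told apart.

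**Figure D1:**
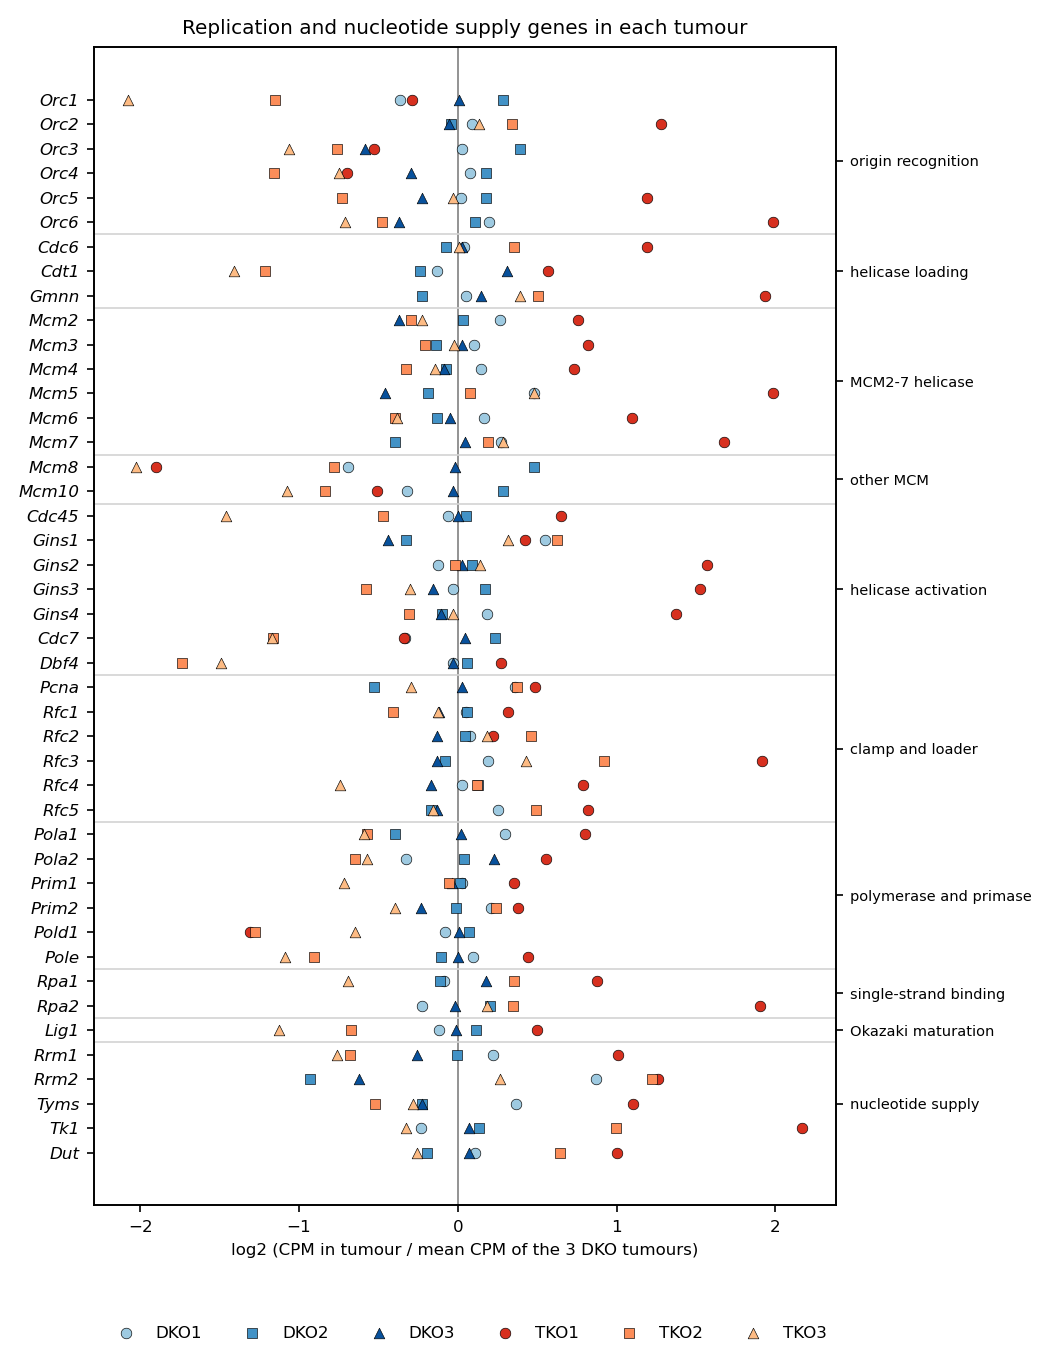
Level of each gene in each tumour as log2 of its CPM over the mean CPM of the 3 DKO tumours (x axis), with genes on the y axis grouped by role; Fen1 is left out because few of its reads could be counted. DKO tumours (blue) cluster around 0, TKO1 (red circles) lies to the right in most rows and TKO2 and TKO3 (orange) to the left; TKO1 was the highest of the 6 tumours in 35 of 45 genes.

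When TKO1 was left out, 4 replication genes fell in TKO and 0 rose, where 4.94% of the 16384 genes then tested fell. They were Dbf4 (log2 fold change -1.62, SE 0.24, adjusted p = 0.012 in edgeR's test), Cdt1 (-1.31, SE 0.27, adjusted p = 0.0298), Pole (-1, SE 0.24, adjusted p = 0.0402) and Cdc7 (-1.17, SE 0.28, adjusted p = 0.0423). In GRCm38 these genes lie at chr5:8396973-8422716 (Dbf4, ENSMUSG00000002297.16), chr8:122568015-122573554 (Cdt1, ENSMUSG00000006585.3), chr5:110286306-110337474 (Pole, ENSMUSG00000007080.14) and chr5:106964322-106984432 (Cdc7, ENSMUSG00000029283.17). The median over the 45 genes turned from 0.23 to -0.27, and the genes below 0 went from 16 to 30. TKO1 was left out because it stood apart, and it had the highest level of all tumours in 35 of the 45 genes. Leaving it out lowers the fold changes of those genes by construction and can narrow the TKO spread. The calls and the turned median are thus a description of the female TKO tumours. Leaving out any other single tumour called 0 of the 45. With only the female tumours of both groups, 2 against 2, an alternative chosen after seeing the data in which 44 of the 45 genes could be tested, Dbf4 and Cdc7 were lower (adjusted p = 0.0317 and 0.0449 in edgeR's test), beside 3.35% of the 15922 genes then tested. The remaining male pair, DKO1 and TKO1, gives no test. An interaction of sex and genotype in edgeR sets that single male pair against the female tumours and takes its spread from the females alone. It passed for 0 of all 15361 genes, the 45 included (smallest adjusted p among them 0.164), and at an unadjusted p under 0.05 it held 14 of the 45 and 16.3% of all genes. It therefore does not tell whether the sexes differ.

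The subunits of the origin recognition complex lay on both sides of the controls in TKO. Orc4, a core subunit, was at 58.5, 62.6 and 45.2 CPM in DKO and at 34.2, 24.9 and 33 CPM in TKO. All TKO tumours, TKO1 included, were below all DKO tumours (log2 fold change -0.85, SE 0.28), without passing (adjusted p = 0.117 in edgeR's test). Orc2, another core subunit, was at 28.7, 26.2 and 26 CPM in DKO and 65.6, 34.2 and 29.6 CPM in TKO, above the controls in each tumour. Orc3 was at 70.1, 90.5 and 46 CPM in DKO and 47.8, 40.7 and 33 CPM in TKO, so that TKO1 alone reached the lowest control.

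Orc5, which had the largest p of the complex, was at 16.6, 18.5 and 14 CPM in DKO and 37.5, 9.89 and 16.1 CPM in TKO, on both sides of the controls. Orc6, the subunit least tightly bound to the complex, was at 191 CPM in TKO1 against 34.5 and 29.4 CPM in TKO2 and TKO3 and 37.2 to 55.1 CPM in DKO. Orc1, the ATPase whose level varies over the cell cycle, was at 10.6, 16.5 and 13.7 CPM in DKO and 11.1, 6.12 and 3.21 CPM in TKO, where the female tumours were below all controls. Parts of the Orc1 and Orc2 exons overlap a gene on the other strand (10.8% and 29.8% of their exon bases), where unstranded reads could not be assigned.

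Among the loading factors, the licensing factor Cdt1 and its inhibitor Gmnn stood differently against the controls. Cdt1 was at 122, 114 and 166 CPM in DKO and at 199, 57.8 and 50.6 CPM in TKO. TKO1 was thus above and the other TKO tumours below every control, and the fold change over all tumours was -0.39 on the log2 scale (95% interval -1.71 to 0.94). Gmnn was at 21.7, 17.9 and 23.2 CPM in DKO and 80.1, 29.8 and 27.4 CPM in TKO. Every TKO tumour exceeded every control, most of all TKO1 (log2 fold change 1.13, SE 0.47, adjusted p = 0.197 in edgeR's test), and without TKO1 the value was 0.44.

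The ratio of Cdt1 to Gmnn CPM within a tumour therefore did not share the split of TKO1 from the other TKO tumours. It was 5.63, 6.34 and 7.19 in DKO and 2.48, 1.94 and 1.84 in TKO, a mean of 6.39 ± 0.779 against 2.09 ± 0.344 (SD, n = 3). The groups did not overlap, and an exact two-sided permutation test gave p = 0.1, the smallest that 3 against 3 allows (0.3 adjusted over the 15 partner ratios compared). Gmnn alone already separated the groups and the pair was chosen with earlier results known, so this p is a description. Cdc6, the ATPase that works with CDT1, was at 20.4, 18.9 and 20.2 CPM in DKO and 45.3, 25.4 and 19.9 CPM in TKO, with TKO3 inside the range of the controls.

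The MCM2-7 ring unwinds the DNA. Summed over its 6 subunits it reached 988, 788 and 789 CPM in DKO and 1835, 737 and 810 CPM in TKO, so TKO2 and TKO3 lay close to the controls and TKO1 well above them. The log2 fold change of all 6 was above 0 with TKO1, from 0.17 to 1.09, and without it those of Mcm2, Mcm3, Mcm4 and Mcm6 turned to between -0.12 and -0.39, while those of Mcm5 and Mcm7 were 0.28 and 0.23. Mcm5 had the smallest p of the ring, at 89.8, 56.7 and 47 CPM in DKO and 255, 67.9 and 89.8 CPM in TKO, with TKO2 and TKO3 within the controls (adjusted p = 0.272 in edgeR's test). Mcm2 had the largest p, at 209, 178 and 135 CPM in DKO and 295, 142 and 149 CPM in TKO (95% interval of the log2 fold change -0.72 to 1.05). Mcm7 was at 111, 69.9 and 94.8 CPM in DKO and 293, 105 and 112 CPM in TKO. Of the Mcm7 exon bases 12.6% overlap Ap4m1, Cops6, Mir93 and Mir25, where reads could not be assigned. Its log2 fold change was 0.89 both in the first strand column and in the either-strand counts.

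**Figure D2:**
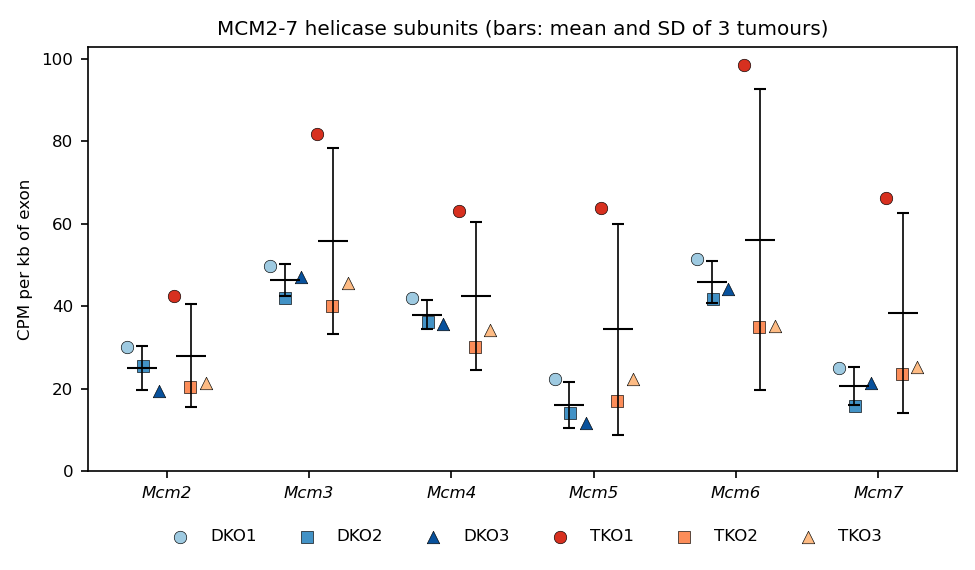
CPM per kb of exon (y axis, linear from 0) of the 6 MCM2-7 subunits in each tumour, with the mean and SD of the 3 tumours of each group. TKO1 is the highest point for every subunit, and TKO2 and TKO3 lie near the DKO tumours.

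The ring is built with 1 copy of each subunit, but RNA levels per kb of annotated exon were unequal between subunits. These levels depend on the length used, which joins the exons of all annotated transcripts of a gene. Mcm2 and Mcm3 were both at a mean of 174 CPM in DKO, yet at 25 and 46.4 CPM per kb, over 6956 and 3752 exon bases. Per kb of exon, Mcm3 and Mcm6 were highest in DKO, at 46.4 ± 3.91 and 45.9 ± 5.01 CPM per kb, and Mcm5 lowest, at 16.1 ± 5.62 (SD, n = 3). In TKO, Mcm5 reached 34.4 ± 25.6 CPM per kb and Mcm7 38.4 ± 24.2, against 20.7 ± 4.66 for Mcm7 in DKO. The ratio of Mcm5 to Mcm2 CPM was 0.429, 0.318 and 0.348 in DKO and 0.864, 0.479 and 0.602 in TKO, and that of Mcm7 to Mcm2 was 0.529, 0.393 and 0.702 in DKO and 0.994, 0.738 and 0.75 in TKO. Both ratios were higher in each TKO tumour than in any control, whereas those of Mcm3, Mcm4 and Mcm6 to Mcm2 overlapped between the groups.

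Of the 37 genes with an entry in the RefSeq promoter table (GRCm38.p6), 9 carried an E2F-type motif in the 250 bases before a start (24.3%), where 2.16% of 27025 genes did. The motifs searched were TTTCCCGC, TTTCGCGC, TTTGCCGC and TTTGGCGC on both strands, with overlaps allowed. The genes were Orc1, Orc3, Cdc6, Mcm5, Mcm6, Mcm7, Gins3, Rfc3 and Pola1, and their log2 fold changes lay on both sides of 0, from -0.99 for Orc1 to 1.23 for Rfc3. A CCAAT box, searched on both strands, was found in 59.5% of these 37 genes and in 37.5% of all. Windows of 4 of the promoters are shown to let a loading factor, 2 subunits of the ring and a polymerase be compared. They overlap no annotated exon and run 5′ to 3′ on the strand of the gene, with the motif in capitals.
Cdc6, chr11:98907982-98908051, plus strand: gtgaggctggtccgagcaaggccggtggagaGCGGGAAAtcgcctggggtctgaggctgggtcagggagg
Mcm5, chr8:75109327-75109396, plus strand: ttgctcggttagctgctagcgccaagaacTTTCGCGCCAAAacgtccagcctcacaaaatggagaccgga
Mcm6, chr1:128359746-128359815, minus strand: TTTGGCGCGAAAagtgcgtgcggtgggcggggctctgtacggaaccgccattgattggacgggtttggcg
Pola1, chrX:93632255-93632324, minus strand: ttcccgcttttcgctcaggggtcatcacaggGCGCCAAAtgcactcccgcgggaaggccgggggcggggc
In Mcm5 and Mcm6 a pair of overlapping motifs, read on opposite strands, makes up the capitals, beginning 153 and 110 bases before the start. Over the whole 250 bases Mcm5 held 2 motifs and Mcm6 held 3. A match is a description of letters and not a measured binding site.

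Mcm8 and Mcm10 did not follow the ring. Mcm8, a helicase relative that acts in repair by recombination, was at 11.6, 26 and 18.4 CPM in DKO and 5, 10.9 and 4.59 CPM in TKO. It had the lowest log2 fold change of the 45 genes (-1.45, SE 0.52), with adjusted p = 0.144 in edgeR's test and 0.0489 by DESeq2. Mcm10, which is needed to open the origin once the helicase is active, was at 29.7, 45 and 36.2 CPM in DKO and 26, 20.7 and 17.5 CPM in TKO (log2 fold change -0.79, SE 0.31, adjusted p = 0.172 in edgeR's test). Both genes were below the controls in TKO1 as well as in the female TKO tumours, unlike all 6 subunits of the ring.

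Of the 7 helicase activation genes, only Cdc7 had groups that did not overlap. Cdc7 was at 42.1, 62.3 and 54.7 CPM in DKO and at 41.9, 23.7 and 23.6 CPM in TKO, where TKO1 was just under the lowest control. Dbf4, the activator of CDC7, was at 82.9, 88.1 and 82.6 CPM in DKO and at 102, 25.3 and 30 CPM in TKO. The DKO tumours had an SD of 3.08 CPM, TKO1 was above them and TKO2 and TKO3 were at 0.3 and 0.36 times the DKO mean. Over all 6 tumours Dbf4 had a log2 fold change of -0.69 (95% interval -1.99 to 0.61).

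Cdc45, which had the largest p of this role, was at 47.3, 51.2 and 49.5 CPM in DKO and 77.5, 35.5 and 17.9 CPM in TKO, again with TKO1 above and the others below. The GINS genes had log2 fold changes of 0.46 to 0.75, and of -0.44 to 0.47 without TKO1. Gins3 and Gins4 reached 34.5 and 66.1 CPM in TKO1 against 8.05 to 13.5 and 20.6 to 28.9 CPM in the other 5 tumours. Gins1 was the least variable of the 4 in TKO, at 9.63, 11 and 8.92 CPM, with 5.28 to 10.5 CPM in DKO. Gins2 was at 51.9 CPM in TKO1 and 16 to 19.3 CPM elsewhere, but 67.3% of its exon bases overlap Gse1 on the other strand, and such reads were not counted.

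The clamp gene Pcna had the highest level per kb of the 45 genes, at 93.4 ± 27.7 CPM per kb in DKO and 109 ± 29.2 in TKO (SD, n = 3). Its CPM values of 288, 156 and 228 in DKO and 315, 290 and 183 in TKO overlapped. The clamp loader RFC has a large subunit, RFC1, and 4 small ones. Rfc3 was at 25.8, 21.3 and 20.6 CPM in DKO and at 85.2, 42.8 and 30.4 CPM in TKO, above every control in each TKO tumour (log2 fold change 1.23, SE 0.42, adjusted p = 0.132 in edgeR's test). Rfc1 was at 118, 119 and 105 CPM in DKO and 142, 86 and 105 CPM in TKO, with a 95% interval of -0.69 to 0.61 on the log2 scale that leaves room for a change of either sign.

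Rfc2 was higher in each TKO tumour by a small margin, at 64.3, 76 and 62.7 CPM against 58.2, 57.1 and 50.5 CPM in DKO (log2 fold change 0.29). The ratio of Rfc3 to Rfc1 CPM was 0.218, 0.179 and 0.195 in DKO and 0.6, 0.497 and 0.291 in TKO, and the groups did not overlap (exact permutation p = 0.1, 0.3 adjusted over the 15 ratios). Rfc3 alone already separated the groups and the pair was chosen with earlier results known, so this p is a description. Rfc4 and Rfc5 were at 9.28 to 26.8 and 44.8 to 88.6 CPM over the 6 tumours, and both groups overlapped in each. Of the exon bases of Rfc2, Rfc4 and Rfc5, 15.1%, 12.7% and 10.7% overlap a gene on the other strand, where unstranded reads could not be assigned. In the first strand column their log2 fold changes were 0.57, -0.14 and 0.29, against 0.29, 0.19 and 0.44 in the either-strand counts.

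Of the polymerase and primase genes, Pold1 had the smallest p of the 45 genes. Pold1 (ENSMUSG00000038644.14, chr7:44532746-44548849, minus strand, GRCm38) codes for the catalytic subunit of polymerase delta, which extends the lagging strand. It was at 88.5, 98.1 and 93.9 CPM in DKO and 37.7, 38.6 and 59.7 CPM in TKO. TKO1 was here the lowest tumour rather than the highest, and all TKO values were below all DKO values. The log2 fold change was -1.05 (SE 0.28, 95% interval -1.71 to -0.39), with adjusted p = 0.0703 in edgeR's test, 0.0182 by DESeq2 and 0.0612 by limma-voom. Over the other settings and left-out tumours its adjusted p ran up to 0.357, reached when libraries were scaled to the mean of the 45 genes, and its fold change stayed below 0 throughout.

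Pole, the catalytic subunit of polymerase epsilon on the leading strand, was at 78.8, 68.4 and 73.6 CPM in DKO and 100, 39.3 and 34.6 CPM in TKO, with TKO1 above and the others below the controls. Pola1, the catalytic subunit of polymerase alpha, had the largest p of the role, at 84, 52.1 and 69.3 CPM in DKO and 119, 46.1 and 45.5 CPM in TKO. Its log2 fold change of 0.04 turned to between -0.01 and -0.12 by limma-voom, with sex as a covariate, in the counts of the first strand column and when scaled to the 45 genes. The second subunit Pola2 and the primase genes Prim1 and Prim2, which make the RNA primers, had fold changes of -0.11, -0.08 and 0.11, and their groups overlapped.

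Single-strand binding protein RPA coats unwound DNA. Rpa2 was at 33.6, 45.1 and 38.8 CPM in DKO and 147, 49.9 and 44.5 CPM in TKO, where TKO3 fell just inside the controls (log2 fold change 1.04, SE 0.5, adjusted p = 0.249 in edgeR's test). Without TKO1 the value was 0.26. Rpa1, the large subunit, was at 114, 112 and 136 CPM in DKO and 221, 154 and 74.7 CPM in TKO. TKO1 and TKO2 were above and TKO3 below the controls.

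For Okazaki fragments, Lig1, the ligase that seals them, was at 90.7, 107 and 97.7 CPM in DKO and at 139, 61.8 and 45 CPM in TKO, which again put TKO1 above and TKO2 and TKO3 below all controls. Fen1, the flap nuclease, could hardly be read from the deposited either-strand counts, which were 15, 9 and 17 in DKO and 16, 3 and 10 in TKO. Of its exon bases 84.2% overlap Gm10143 and Tmem258 on the other strand, and reads in more than 1 gene were left out. In the first strand column, which assigns reads by orientation and so mixes Fen1 with reads of those genes in an unstranded library, it had 462, 322 and 390 counts in DKO and 1485, 548 and 435 in TKO. Its log2 fold change there was 0.8, against -0.73 in the either-strand counts, so no direction is given for Fen1.

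All 5 genes of nucleotide supply had log2 fold changes above 0 over the 6 tumours, none of them past the threshold, and without TKO1 those of Rrm1 (-0.73) and Tyms (-0.40) were below 0. Tk1, the salvage kinase that makes thymidine monophosphate, had the highest of the 45 genes (1.28, SE 0.59, adjusted p = 0.229 in edgeR's test). It was at 35.5, 45.7 and 43.6 CPM in DKO and 187, 82.9 and 33.2 CPM in TKO, with TKO3 below the controls. Without TKO1 its log2 fold change was 0.48, under that of Rrm2 (0.81). Rrm1, the large subunit of ribonucleotide reductase, was at 254, 216 and 182 CPM in DKO and 437, 136 and 128 CPM in TKO. Its fold change of 0.1 turned to between -0.12 and -0.14 by limma-voom, with sex as a covariate and when scaled to the 45 genes.

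Rrm2, the small subunit and the one limited to S phase, was the most variable of the 45 genes among the controls relative to its mean. It was at 110, 31.5 and 39 CPM in DKO and 144, 140 and 72 CPM in TKO, where DKO1 lay within the TKO range. Tyms, which makes thymidylate afresh, was at 76.2, 50.5 and 50.6 CPM in DKO and 127, 41.1 and 48.6 CPM in TKO. Dut, which removes dUTP, was at 62.7, 50.9 and 61.2 CPM in DKO and 117, 91 and 48.8 CPM in TKO. In both genes TKO1 was the highest tumour and TKO3 below all controls.

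To set each gene against the whole machinery of its own tumour, its log2 CPM was compared with the mean over the 45 genes in that tumour. On this scale Orc2 was at -0.79 ± 0.02 in DKO and -0.24 ± 0.01 in TKO, and Rfc3 at -1.05 ± 0.1 in DKO and 0.00 ± 0.17 in TKO (SD, n = 3). Cdc6, Gmnn, Mcm7, Gins2, Rpa2 and Dut were likewise higher in every TKO tumour than in any DKO tumour. Orc1, Orc3, Orc4, Mcm10, Cdc7, Dbf4, Pold1, Pole and Lig1 were lower in every TKO tumour. On the same scale, whose mean is made of these 45 genes, 12.6% of all 15361 genes were apart upward and 12.5% downward, beside 8 and 9 of the 45. When the libraries were scaled in this way in edgeR's test, chosen after seeing the data, 0 of the 45 passed, with the smallest adjusted p at 0.139 for Rfc3.

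Partner ratios within a tumour did not separate the groups more often than pairs of these genes at large. Of the 15 partner ratios 5 separated them, the ratios of Cdt1 to Gmnn, Rfc3 to Rfc1, Orc2 to Orc4, Mcm5 to Mcm2 and Mcm7 to Mcm2. Over all 946 pairs of the genes other than Fen1, 39.0% did. The 15 pairs were chosen with earlier results of these data known, so their count is a description and not a test. The ratio of Orc2 to Orc4 had to separate, since every TKO tumour was above the controls in Orc2 and below them in Orc4. The ratio of Orc2 to Orc4 CPM was 0.491, 0.418 and 0.575 in DKO and 1.92, 1.37 and 0.895 in TKO. Relative to its mean, the ratio of Pold1 to Pole differed most of the 15 among the TKO tumours, at 0.377, 0.983 and 1.72, around 1.12 to 1.43 in DKO.

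**Figure D3:**
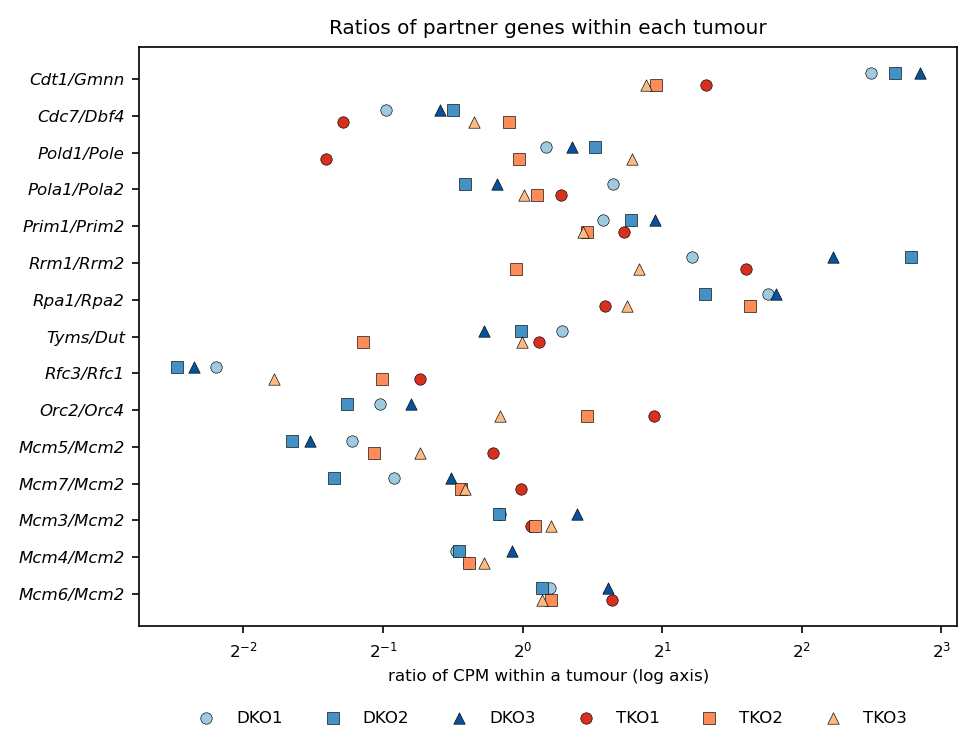
Ratio of the CPM of 15 partner genes within each tumour (x axis, log scale), DKO in blue and TKO in red and orange. The ratio of Cdt1 to Gmnn lies between 1.84 and 2.48 in TKO and between 5.63 and 7.19 in DKO, while the ratios of Mcm3, Mcm4 and Mcm6 to Mcm2 overlap.

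The other genes of these pathways were read from 4 wider lists. Over all genes tested, 4.89% rose and 2.47% fell in TKO. Of 32 further replication genes tested, 0 rose and 1 fell. It was Recql4, a helicase that helps start replication, at 35.2, 74.5 and 45.6 CPM in DKO and 16, 11.6 and 8.92 CPM in TKO (log2 fold change -2.08, SE 0.41, adjusted p = 0.0325 in edgeR's test). The next genes by p were Dna2, the nuclease that trims long flaps, with 16.1 to 20 CPM in DKO and 27.2 to 57.7 CPM in TKO, Rnaseh2b, a subunit of the enzyme that removes RNA from DNA, with 9.4 to 17.4 and 23.5 to 24.9 CPM, and Topbp1, which helps recruit CDC45, with 205 to 240 and 127 to 155 CPM. None of these 3 passed, and in each the groups did not overlap.

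Of 35 further genes of nucleotide synthesis, 0 rose and 1 fell, beside 4.89% and 2.47% of all genes. Shmt2, the mitochondrial serine hydroxymethyltransferase that feeds one-carbon units to the pathway, was at 541, 284 and 305 CPM in DKO and 84.9, 80.9 and 95 CPM in TKO. Its log2 fold change was -2.11 (SE 0.34, adjusted p = 0.0216 in edgeR's test), and TKO1 did not stand apart from the other TKO tumours. Mthfd2, the next mitochondrial enzyme of that route, was at 185, 165 and 119 CPM in DKO and 107, 56.1 and 34.3 CPM in TKO (adjusted p = 0.147 in edgeR's test). Samhd1, which breaks down deoxynucleotides, was at 64.7 to 73.2 CPM in DKO and 74.3, 212 and 309 CPM in TKO, and the salvage kinase gene Dck at 26.4 to 47.4 and 46.1 to 174 CPM, neither past the threshold. Samhd1 is also strongly expressed in macrophages, whose summed markers were 1059, 2931 and 2685 CPM in the TKO tumours, and their part in its level was not tested.

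Among 25 genes that control licensing, Skp2 fell, as the genotype sets, and Rb1 rose, with 17.9 to 22.5 CPM in DKO and 91.7, 52.2 and 44.9 CPM in TKO (log2 fold change 1.61, SE 0.35, adjusted p = 0.0419 in edgeR's test). Rb1 and Trp53 were floxed in both groups, and gene counts do not show how much of each was deleted. Trp53 was at 6.03 to 7.36 CPM in DKO and 8.46, 37.8 and 21.9 CPM in TKO, and the part of cells of other lineages, whose markers were higher in TKO, was not tested. Ccne2, the cyclin E2 gene of the G1/S transition, was at 36.5, 28.1 and 16.6 CPM in DKO and 160, 57.2 and 42.8 CPM in TKO, above every control but not past the threshold (adjusted p = 0.13 in edgeR's test). Leaving out any DKO tumour, TKO2 or TKO3 left 0 calls in the 4 lists, in fits that called between 0 and 475 genes of the whole table. Leaving out TKO1 gave 16 calls in the 4 lists, 3 higher and 13 lower, of 2385 in the whole table. Of all 16384 genes then tested, 1575 were called higher and 810 lower (4.94% lower).

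The summed level of mitosis markers was likewise highest in TKO1 and below all controls in TKO2 and TKO3, though single markers did not all follow. The sum was 1445, 2018 and 1695 CPM in DKO and 2933, 1078 and 520 CPM in TKO, and 0 of 19 changed in edgeR's test, with 0 higher and 2 lower at an unadjusted p under 0.05. Those 2 were the spindle checkpoint kinases Bub1, at 56.5 to 65.5 CPM in DKO and 17.5 to 40.4 CPM in TKO, and Ttk, at 27.7 to 39.9 and 8.41 to 25.7 CPM, both below the controls in TKO1 too. The spindle genes Aurka and Tpx2 followed by p, at 50 to 87 and 189 to 220 CPM in DKO and 18.5 to 54.8 and 51.3 to 178 CPM in TKO. Mki67, the proliferation marker Ki-67, was at 252, 311 and 226 CPM in DKO and 424, 125 and 95.1 CPM in TKO, and Top2a, topoisomerase II alpha, at 378, 493 and 501 and 431, 243 and 185 CPM.

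The level of the 45 genes over that of the mitosis markers was 2.36, 1.48 and 1.77 in DKO and 1.93, 2.57 and 4.58 in TKO. The groups overlapped, and TKO3 held the most replication RNA per mitosis RNA. The replication and mitosis sums were lowest in TKO2 and TKO3. Their endothelial, macrophage, pan-leukocyte, skeletal muscle and osteoblast lineage sums were the highest of the 6 tumours. TKO3 was below TKO2 in the replication, mitosis, endothelial, macrophage, pan-leukocyte, skeletal muscle and fibroblast sums. It was above TKO2 in the osteoblast lineage, erythroid and chondrocyte sums. TKO2 and TKO3 alone cannot show a relation between these sums, and none was tested. Endothelial markers summed to 12.4 to 40 CPM in DKO and to 188, 918 and 663 CPM in TKO (9 of 10 rose), and skeletal muscle markers to 5.73 to 14.2 CPM and to 462, 12246 and 2231 CPM (11 of 11 rose).

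Erythroid markers were highest in TKO1, with sums of 1167, 89 and 461 CPM in TKO and 0.498 to 1.38 CPM in DKO (4 of the 4 tested rose). Pan-leukocyte and lymphoid markers summed to 77.7, 243 and 171 CPM in TKO and to 0.0996 to 0.613 CPM in DKO (4 of the 4 tested rose). Osteoblast lineage markers were at 15993 to 24578 CPM in DKO and at 4363, 55153 and 81732 CPM in TKO (2 of 10 tested rose), with Dmp1 at 0 in all DKO libraries. Fibroblast markers were at 6534 to 14811 CPM in DKO and 1123, 9996 and 3242 CPM in TKO (0 of 6 changed), and chondrocyte markers at 6.37 to 27 and 110, 108 and 255 CPM (1 of 2 tested rose). The part of these cells in the lower replication levels of TKO2 and TKO3, and in the higher ones of TKO1, was not tested.

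**Figure D4:**
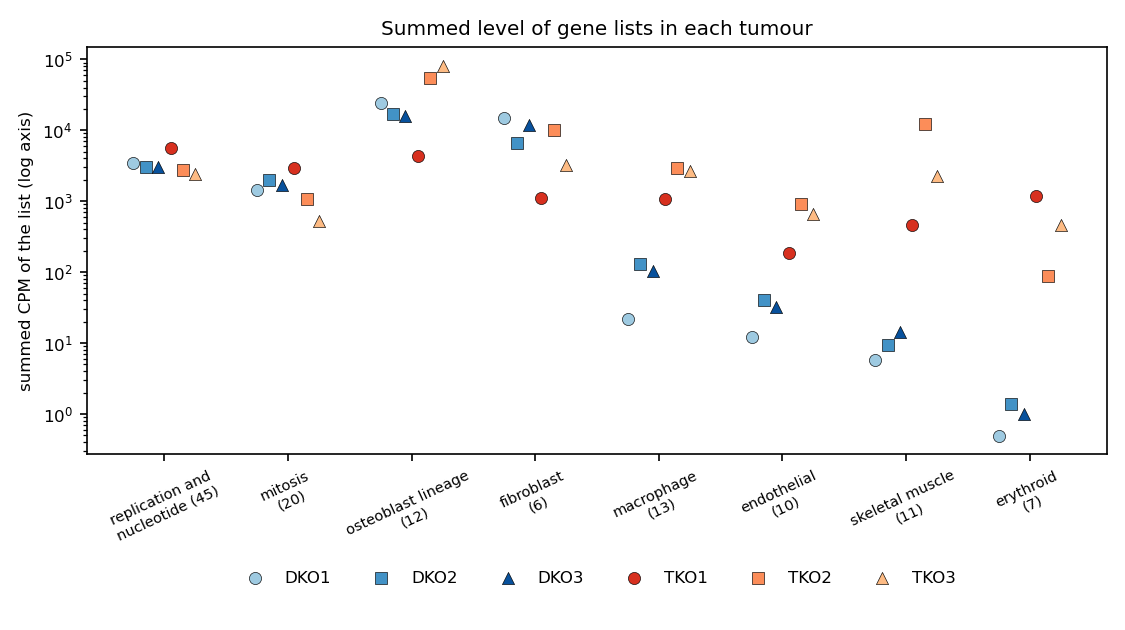
Summed CPM (y axis, log scale) of the 45 replication and nucleotide genes, of mitosis markers and of cell type markers in each tumour, with the number of genes listed in brackets. The replication sum spans 2384 to 5673.5 CPM, while the macrophage sum lies between 21.7 and 131 CPM in DKO and between 1059 and 2931 CPM in TKO.

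**Figure D5:**
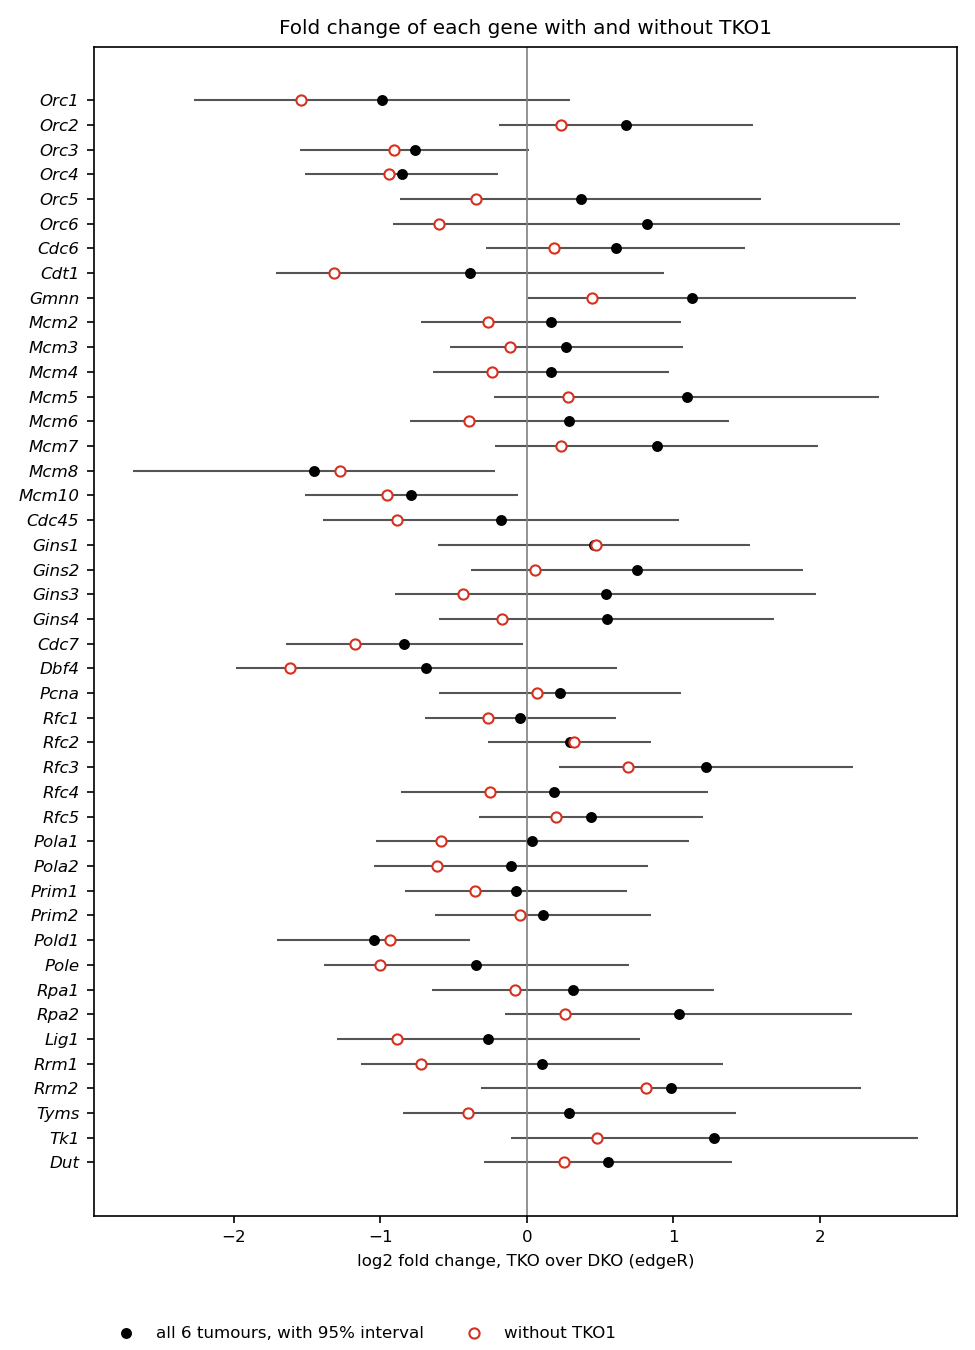
Log2 fold change of TKO over DKO (x axis) for each gene except Fen1, from all 6 tumours with its 95% interval (black) and without TKO1 (open red circles). Without TKO1 most values move to the left, and the median over the 45 genes goes from 0.23 to -0.27.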

How the data were processed

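Polyadenylated RNA of 3 DKO and 3 TKO mouse osteosarcomas was sequenced by Illumina HiSeq (labels' protocols). The authors deposited raw read counts per gene for each library, with no normalization, and a table of the whole series that held the same values. Per the submitters' processing notes, reads were handled with STAR 2.6.1 and build mm10. The release of the annotation was not given in the sources used here. Counts of reads on either strand were used, since the labels' protocols describe no strand mark, and the first strand column held 50.2 to 51.3% of stranded counts. Lines of reads assigned to no gene were left out. They made up 2.53 to 3.2% of a library for unmapped reads, 3.94 to 4.7% for reads at several places, 5.33 to 9.3% for reads in no gene and 5.1 to 6.53% for reads in more than 1 gene.

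Gene IDs were matched to symbols and exons through GENCODE M21 (GRCm38), which left 956 of 56196 IDs unmatched. Genes were kept by filterByExpr with a minimum count of 10, scaled by TMM factors and tested with edgeR 4.0.16 (R 4.3.3), with no covariate. CPM per kb divides by the joined length of all annotated exons of the gene, which can exceed the length of a single transcript. The SE comes from the fold change and the F statistic, and intervals use edgeR's degrees of freedom. Ratios were compared by exact permutation (scipy 1.17.1). DESeq2 1.42.0, limma-voom (limma 3.58.1), other scalings and filters, the replicate block, sex as a covariate, the first strand column and left-out tumours were the alternatives. The code was tested on simulated data. No replicate pair agreed within sampling noise. Floors and intervals on counts cover counting error only.

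The 45 genes, the other lists, the 15 partner pairs and the tests were chosen with earlier results of these data known. The rule for named genes gave values in every tumour for genes past the threshold and for the smallest and largest p in each role, up to 4 genes with the smallest p in each pathway list, and Skp2, Rb1, Trp53, Mki67 and Top2a. Other genes with values, and the promoters shown, were chosen after their values were seen. Scaling to the 45 genes and the test on female tumours alone were also added after seeing the data.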

Additional observations from a re-analysis of the deposited data

How the results depend on the processing

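No alternative called any of the 45 genes higher in TKO, and those called lower numbered 2 by DESeq2, 0 to 4 with tumours left out (4 without TKO1, 2 among females) and 0 in the other alternatives. The 1131 genes called over the whole table became 146 when genes needed 1 CPM in each group, 2893 by DESeq2, 745 when scaled to the 45 genes and 0 to 2385 with tumours left out (0 without DKO3, 2 without DKO2, 39 without DKO1, 475 without TKO2, 331 without TKO3). The 4 calls in the wider pathway lists became 1, 9, 2 and 0 to 16 in the same order. The median log2 fold change of the 45 genes ran from -0.27 to 0.40 with tumours left out.

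With the replicate block, 0 of the 45 genes and 0 of the wider lists passed, and 295 genes in all. The labels do not tie equal numbers to a shared litter or day, and deviations of equal-numbered tumours correlated at -0.007, 0.0089 and -0.017, so the numbers were not taken as pairs. The cause of these shifts was not tested.

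Signs of small fold changes turned. Rfc1 was 0.0019 with library totals. In the first strand column Rfc4 was -0.14, Pola1 -0.010 and Fen1 0.80. Pola1 was -0.086 by limma-voom, -0.093 under the replicate block, -0.10 with sex as a covariate and -0.12 when scaled to the 45 genes, and Rrm1 was -0.14, -0.14, -0.14 and -0.12. With tumours left out, log2 fold changes ranged from -0.92 to 0.20 for Cdc45, -0.45 to 0.89 for Gins3, -0.17 to 0.84 for Gins4, -0.94 to 0.038 for Lig1, -0.27 to 0.36 for Mcm2, -0.12 to 0.47 for Mcm3, -0.24 to 0.37 for Mcm4, -0.39 to 0.55 for Mcm6, -0.34 to 0.72 for Orc5, -0.60 to 1.23 for Orc6, -0.59 to 0.28 for Pola1, -0.75 to 0.11 for Pola2, -0.35 to 0.17 for Prim1, -0.047 to 0.32 for Prim2, -0.27 to 0.12 for Rfc1, -0.25 to 0.50 for Rfc4, -0.12 to 0.64 for Rpa1, -0.73 to 0.40 for Rrm1 and -0.40 to 0.58 for Tyms. Depth limits Fen1, with at most 17 counts in a library.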
